A study of Arabidopsis thaliana with 9 samples.

Results

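The nuclear genes for photosystem II and its antenna were followed through iron deficiency and iron resupply in Arabidopsis thaliana shoots. The set holds 31 loci of the 34262 in the tables: 14 PSB loci for subunits of photosystem II, 15 LHCB loci for antenna proteins, and the early light-induced relatives ELIP1 and ELIP2. They were chosen by locus name, and no measured value is part of the rule. All 31 were found, as 42 of 55442 transcripts.

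RNA-seq was done on shoots of wild type Col-0 plants in 3 conditions with 3 samples each, 9 samples in all. Seedlings of every condition had an initial 14 days with iron. Those of +Fe then moved to fresh iron medium for 3 days and again for 24 hours. Those of -Fe had no iron over the same 3 days and 24 hours, and those of resupply had none for 3 days and then iron for the last 24 hours.

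Photosystem II uses light to split water and pass electrons into the thylakoid membrane. Its reaction centre is encoded in the plastid, while the extrinsic proteins that shield the manganese cluster, several small membrane subunits and the whole light-harvesting antenna are encoded in the nucleus. The antenna is made of trimers of LHCB1, LHCB2 and LHCB3, which bind most of the chlorophyll, and of the monomeric linkers LHCB4 (CP29), LHCB5 (CP26) and LHCB6 (CP24). The core holds a non-haem iron and the haem of cytochrome b559, and iron-deficient leaves are known for chlorosis.

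The tables that could be used give, for each pair of conditions, an average level over the libraries of both conditions, in log2 CPM (counts per 1000000 counts of a library). The level in each condition was solved from these 3 averages. No value per sample was used, so no spread between plants, no n beside a value and no test of its own is given, and a difference is given as a log2 ratio with its counting error only. The smallest steps in each table fell on 12 levels, as single counts in 12 libraries would give, although the labels name 6 samples for a pair of conditions. From these steps each condition rested on about 6780000 counts, and the counting standard error (SE) of a ratio follows from that. The SE takes the 12 levels as separate libraries and would be too small if they were not. It holds no error from dividing reads between similar copies. Levels carry no correction for length, so they are compared between conditions and not between genes.

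Iron response genes checked which condition is -Fe. bHLH39, a transcription factor of the iron deficiency response, was at 115 CPM in -Fe and 1.18 CPM in +Fe. The iron-binding E3 ligase BTS stood at 844 and 200 CPM, the metal transporter OPT3 at 640 and 195 CPM, and the iron store ferritin FER1 at 11.3 and 106 CPM. In resupply bHLH39, BTS, OPT3 and FER1 were at 8.53, 181, 148 and 158 CPM, nearer to +Fe than to -Fe. Telling +Fe from resupply therefore rests on the names the authors gave. Among shoot markers, the Rubisco small subunit RBCS1A was between 10623 and 12273 CPM and Rubisco activase RCA between 8731 and 9320 CPM. Of 7 root markers, 3 (TIP2;3, CASP1 and EXP7) were at 0 in each condition, 3 (IRT1, FRO2 and COBL9) were at most 3.85 CPM, and PYK10 was between 74 and 121 CPM.

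Together the 31 loci made up 10.4% of all counts in -Fe, 10.7% in +Fe and 11.6% in resupply. Without LHCB1.5, whose reads cannot be told apart from those of an antisense locus, the shares were 9.72%, 10.13% and 10.60%. Fewer cells of a type and less RNA per cell cannot be told apart in whole shoots. Of the 31 loci, 28 had a mean level of at least 10 CPM and 23 of at least 1000 CPM, which only 99 loci in the tables reached. The extrinsic protein gene PSBP2 (AT2G30790) was at 6.45 CPM in -Fe, 6.94 in +Fe and 8.1 in resupply. ELIP1 (AT3G22840) was at 0.945, 2.84 and 0.904 CPM and ELIP2 (AT4G14690) at 1.39, 0.545 and 0.889 CPM in the same order. The ELIP proteins bind pigments under light stress, and at these levels no ratio was read for any of these 3 loci.

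**Figure D1:**
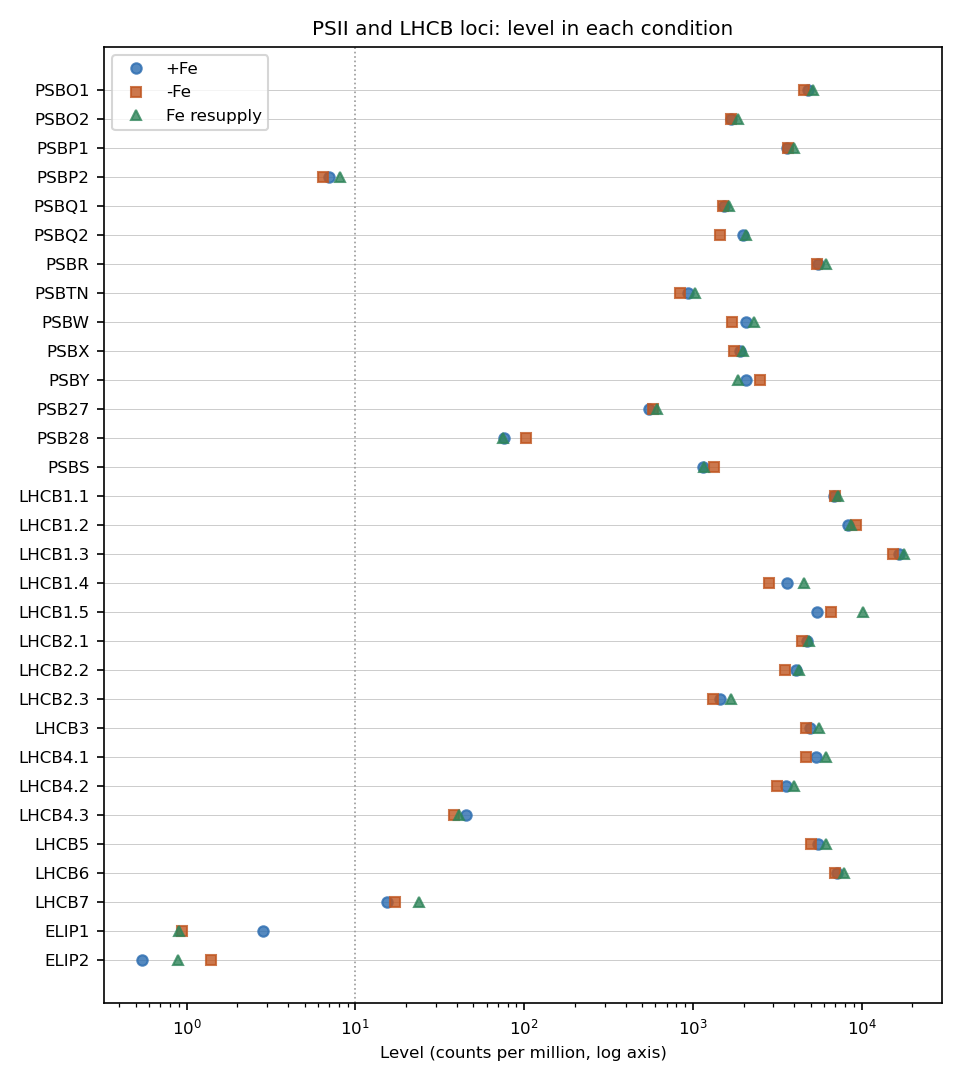
Level of each of the 31 loci in CPM on a log axis, with a circle for +Fe, a square for -Fe and a triangle for Fe resupply; each symbol is a condition level solved from the tables and has no replicate error. The dotted line marks 10 CPM, under which PSBP2, ELIP1 and ELIP2 lie, and the resupply symbol is the rightmost for 23 of the 28 loci above it. That count depends on the scaling of the tables: on loci of at least 1000 CPM, resupply was above -Fe at 17 and above +Fe at 16. In photosystem I, 17 of 18 loci were above 0 in each resupply comparison with the scaling used here. So were 51 of the 76 other loci of at least 1000 CPM over -Fe and 62 over +Fe. Among all 11230 loci of at least 10 CPM, 5582 and 5653 were. How many of all loci were highest in resupply was not counted.

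The first comparison asks what iron deficiency did to these transcripts. None of the 28 loci differed between -Fe and +Fe by a log2 ratio of 0.5 (1.41-fold) in either direction. Among all 11230 loci of at least 10 CPM, 5% were higher and 5.75% lower by that much, and 2.23% were past a log2 ratio of 1, which is the minimum change of the study's methods. Among the 99 loci of at least 1000 CPM, members included, 4.04% were past 0.5. The members' log2 ratios lay between -0.45 and 0.43 with a median of -0.09, against a median of 0.00 over all loci, and 19 were below 0 and 9 above it.

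The lowest ratio was that of PSBQ2 (AT4G05180), one of the paired genes for an extrinsic subunit of the oxygen-evolving complex. It was at 1984 CPM in +Fe, 1454 in -Fe and 2068 in resupply, so the deficient level was the low one and the other two lay close together. Its log2 ratio of -Fe over +Fe was -0.45 (counting SE 0.019), and 13.5% of all loci of at least 10 CPM were at least as far from 0. The paired gene PSBQ1 (AT4G21280) was at 1520, 1516 and 1644 CPM in the same order. The coding sequences of PSBQ1 and PSBQ2 are 76.9% identical, with no shared run longer than 31 bases.

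The other extrinsic subunits were close to even between -Fe and +Fe. The log2 ratio was -0.08 for PSBO1 (AT5G66570) and -0.01 for PSBO2 (AT3G50820), the manganese-stabilising proteins. It was 0.00 for PSBP1 (AT1G06680) and -0.01 for PSBR (AT1G79040), which helps to anchor the extrinsic proteins.

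The 4 small subunits were not alike. PSBW (AT2G30570), which is needed for stable supercomplexes of photosystem II with its antenna, was at 2059 CPM in +Fe, 1712 in -Fe and 2318 in resupply, a log2 ratio of -0.27 (counting SE 0.018) in deficiency. PSBY (AT1G67740), a small membrane subunit associated with cytochrome b559, had the opposite order: 2080 CPM in +Fe, 2489 in -Fe and 1859 in resupply, a log2 ratio of 0.26 (counting SE 0.016). PSBTN (AT3G21055) and PSBX (AT2G06520) had log2 ratios of -0.15 and -0.12. Of all loci of at least 10 CPM, 31.5% were at least as far from 0 as PSBW and 32.6% as PSBY.

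The assembly and protection genes were on the higher side in -Fe. PSB28 (AT4G28660), an assembly factor known best from cyanobacteria, was at 76.5 CPM in +Fe, 103 in -Fe and 74.8 in resupply. Its log2 ratio of -Fe over +Fe was 0.43, the highest of the set, with a counting SE of 0.084. PSBS (AT1G44575), the sensor protein for the rapid dissipation of excess light as heat, was at 1142, 1344 and 1172 CPM in the order +Fe, -Fe and resupply, a log2 ratio of 0.23 in deficiency. PSB27 (AT1G03600), which binds photosystem II during its assembly and repair, had a log2 ratio of 0.09. Of all loci of at least 10 CPM, 14.6% were at least as far from 0 as PSB28 and 36.6% as PSBS.

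In the antenna, 11 of 15 LHCB loci were below 0 in -Fe over +Fe, with a median of -0.11. Of all 11230 loci of at least 10 CPM, 5658 were below 0. All 5 minor antenna genes were below 0: LHCB4.1 (AT5G01530) at -0.20, LHCB4.2 (AT3G08940) at -0.18, LHCB4.3 (AT2G40100) at -0.24, LHCB5 (AT4G10340) at -0.13 and LHCB6 (AT1G15820) at -0.04. LHCB4.3 was the least certain of them, at 38.2 to 45.4 CPM with a counting SE of 0.12. Of all loci, 35% were at least as far from 0 as LHCB4.3 and 85.4% as LHCB6. Among the genes for the trimers, LHCB2.1 (AT2G05100), LHCB2.2 (AT2G05070), LHCB2.3 (AT3G27690) and LHCB3 (AT5G54270) had log2 ratios of -0.09, -0.21, -0.15 and -0.09.

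**Figure D2:**
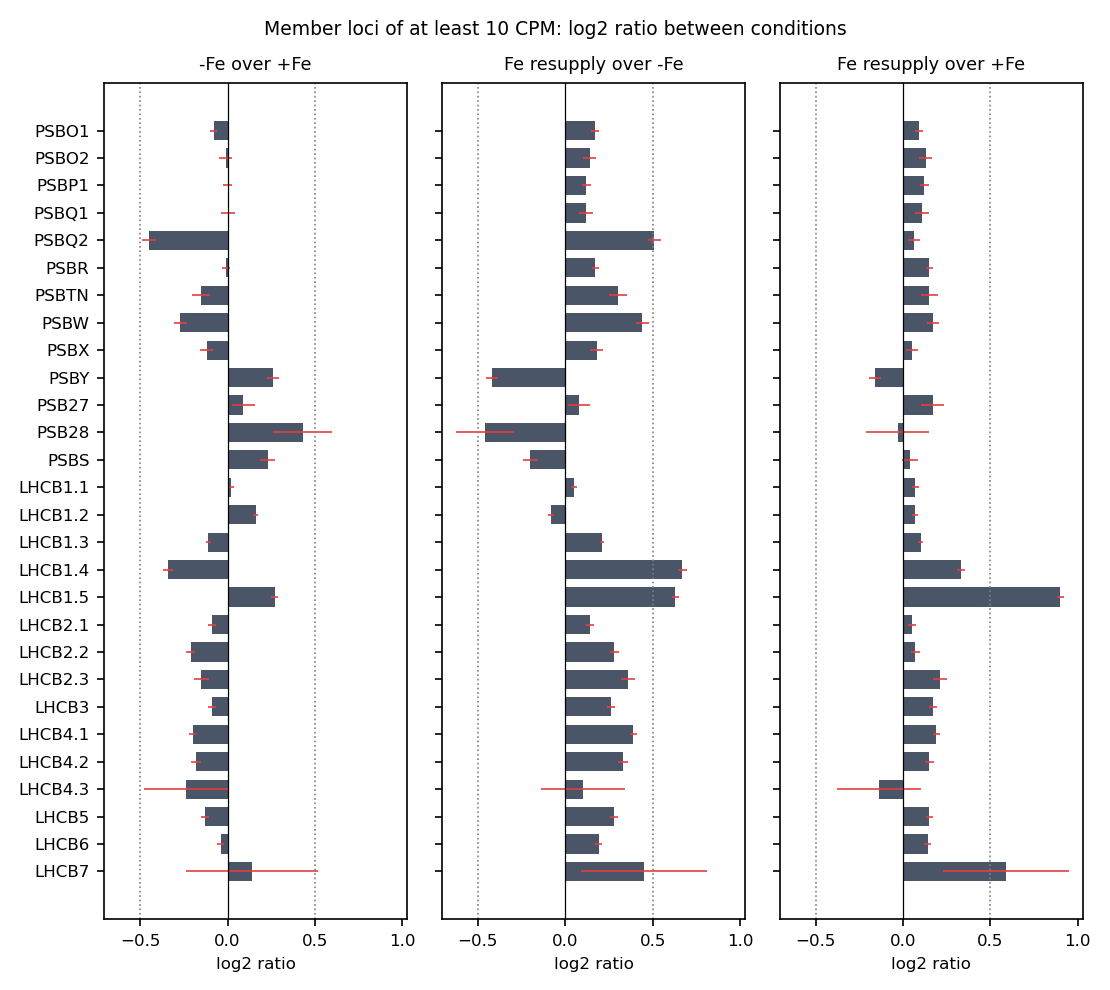
Log2 ratio between conditions for the 28 loci of at least 10 CPM, in 3 panels that share libraries with each other; red bars span 2 counting SEs to each side and hold no spread between plants, and dotted lines mark 0.5 in both directions. No bar passes 0.5 in the first panel, PSBQ2, LHCB1.4 and LHCB1.5 do in the second, and LHCB1.5 and LHCB7 in the third, where the bars near 0 change side with another scaling of the tables.

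The 5 LHCB1 copies need their sequences to be read, because similar copies can trade reads. LHCB1.1 (AT1G29920), LHCB1.2 (AT1G29910) and LHCB1.3 (AT1G29930) stand side by side on chromosome 1 (chr1:10474656-10475969, chr1:10472280-10473502 and chr1:10477885-10479114 in TAIR10.1), and their coding sequences are 95.6% to 96.4% identical. LHCB1.4 (AT2G34430, chr2:14524607-14525918) and LHCB1.5 (AT2G34420, chr2:14522524-14523568) are neighbours on chromosome 2, transcribed away from each other with 1038 bases between them, and are 91.4% identical. Between the chromosome 1 and chromosome 2 copies identity is 86.8% to 90.4%. The first 120 coding bases of each copy, from the RefSeq TAIR10.1 genome, are shown to make these distances visible; capitals mark bases that differ from LHCB1.1 in an alignment of the pair, and LHCB1.4 and LHCB1.5 lack 4 and 6 of the LHCB1.1 bases in this stretch.
LHCB1.1: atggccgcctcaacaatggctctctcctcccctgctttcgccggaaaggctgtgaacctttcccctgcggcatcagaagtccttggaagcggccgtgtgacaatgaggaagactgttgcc
LHCB1.2: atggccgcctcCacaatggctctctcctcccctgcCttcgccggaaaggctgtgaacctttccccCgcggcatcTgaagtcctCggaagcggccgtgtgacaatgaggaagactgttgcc
LHCB1.3: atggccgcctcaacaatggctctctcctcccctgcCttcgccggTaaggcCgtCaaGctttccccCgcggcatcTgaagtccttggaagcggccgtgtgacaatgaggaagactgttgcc
LHCB1.4: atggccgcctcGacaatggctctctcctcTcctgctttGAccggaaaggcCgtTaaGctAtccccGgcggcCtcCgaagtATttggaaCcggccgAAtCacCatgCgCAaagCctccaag
LHCB1.5: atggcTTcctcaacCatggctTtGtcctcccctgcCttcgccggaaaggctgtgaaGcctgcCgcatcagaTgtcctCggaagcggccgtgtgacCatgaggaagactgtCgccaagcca

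With 5 and 7 capitals against 22 and 12, the chromosome 1 copies are the ones that resemble each other most, and the longest run that LHCB1.1 shares with LHCB1.3 is 119 bases. LHCB1.4 and LHCB1.5 share a run of 122 bases. Values of all 5 single copies are therefore uncertain. LHCB2.1 and LHCB2.2, at 96.6%, are in the same position, and as a sum they were at 8787 CPM in +Fe, 7944 in -Fe and 9129 in resupply.

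The summed level of LHCB1.1 to LHCB1.3 was 31876 CPM in +Fe, 31654 in -Fe and 33759 in resupply. The sum was even between +Fe and -Fe at a log2 ratio of -0.01, while the single copies were at 0.02, 0.16 and -0.11. LHCB1.4 was at 3609 CPM in +Fe, 2843 in -Fe and 4538 in resupply, and LHCB1.5 at 5467, 6589 and 10184 CPM in the same order. The pair on chromosome 2 thus had different orders in +Fe and -Fe, with log2 ratios of -0.34 (counting SE 0.014) and 0.27 (counting SE 0.010), and both were highest in resupply. As a sum the pair was at 9076 CPM in +Fe, 9432 in -Fe and 14722 in resupply, so its log2 ratio was 0.06 in deficiency, 0.64 for resupply over -Fe and 0.70 for resupply over +Fe.

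The second comparison asks what 24 hours of iron changed after deficiency. Of 28 loci, 3 were higher in resupply than in -Fe by at least 0.5 and 0 were lower, where 6.15% of all loci of at least 10 CPM were higher and 5.57% lower. At a log2 ratio of 1, 0 members and 2.22% of all loci were called. Of the 99 loci of at least 1000 CPM, 12.1% were past 0.5.

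The 3 loci were LHCB1.4 at 0.67 (counting SE 0.013), LHCB1.5 at 0.63 (counting SE 0.0088) and PSBQ2 at 0.51 (counting SE 0.019). The call of PSBQ2 was lost at 0.44 with unscaled tables and at 0.49 with scaling on loci of at least 100 CPM. Of all loci, 5.83% were at least as far from 0 as LHCB1.4 in this comparison. LHCB7 followed at 0.45, PSBW at 0.44 and LHCB4.1 at 0.39. LHCB4.1 was at 5360 CPM in +Fe, 4679 in -Fe and 6115 in resupply, and LHCB4.2 at 3577, 3165 and 3981 CPM, so the paired CP29 genes had the same order.

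In resupply over -Fe 24 of 28 members were above 0, with a median of 0.18, but 17 of 28 and a median of 0.04 when the tables were scaled on loci of at least 1000 CPM, a setting added after the data were seen. These scaling loci include the 23 members of that level, so part of the members' own difference is taken off by construction. With the members and photosystem I left out of the scaling loci, also added later, 23 of 28 were above 0 with a median of 0.11, and PSBQ2 was at 0.44. The first of these scalings moved the median of all loci by -0.145 here and by -0.112 in resupply over +Fe, and the second by -0.079 and -0.110. With scaling on loci of at least 10 CPM, the 23 strongly expressed members had a median of 0.19 over -Fe and the 76 other loci of that level 0.13, or 0.05 for the 63 that remain when photosystem I is left out. Above 0 were 51 of those 76 loci and 5582 of all 11230 loci of at least 10 CPM. The 4 members below 0 were PSB28 at -0.46, PSBY at -0.42, PSBS at -0.20 and LHCB1.2 at -0.08. All 4 were higher in -Fe than in both other conditions, LHCB1.2 at 9228 CPM against 8288 in +Fe and 8701 in resupply. With the added scalings PSB28 was at -0.61 and -0.55 and PSBY at -0.57 and -0.51.

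The third comparison sets resupply beside plants that never lacked iron. LHCB1.5 was higher in resupply by a log2 ratio of 0.90 (counting SE 0.0093) and LHCB7 (AT1G76570) by 0.59 (counting SE 0.18), and 0 members were lower by 0.5. Of all loci of at least 10 CPM, 2.71% were higher and 3.72% lower by 0.5, and 0.552% were past 1. Of the loci of at least 1000 CPM, 2.02% were past 0.5 here, and LHCB1.5 is one of those 2 loci. Only 0.882% of all loci were as far from 0 as LHCB1.5. LHCB7, a rarer relative of the antenna proteins, was at 15.5 CPM in +Fe, 17.2 in -Fe and 23.7 in resupply, and its counting error was the largest of the set. Its call was lost at 0.49 with a pseudocount of 5 CPM and just under 0.5 with both scalings on loci of at least 1000 CPM, and at a minimum of 50 CPM it was not counted.

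Apart from LHCB1.5, LHCB7 and LHCB1.4 (0.33), the members lay between -0.16 and 0.21 in resupply over +Fe. The median of the 28 was 0.13 and 25 were above 0. With the tables scaled on loci of at least 1000 CPM these became 0.02 and 16 of 28, and likewise with members and photosystem I left out of the scaling loci. The strongly expressed members had a median of 0.12, the 76 other loci of that level 0.11 and the 63 outside photosystem I 0.09. With scaling on loci of at least 10 CPM, 62 of those 76 loci and 5653 of all 11230 loci were above 0.

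**Figure D3:**
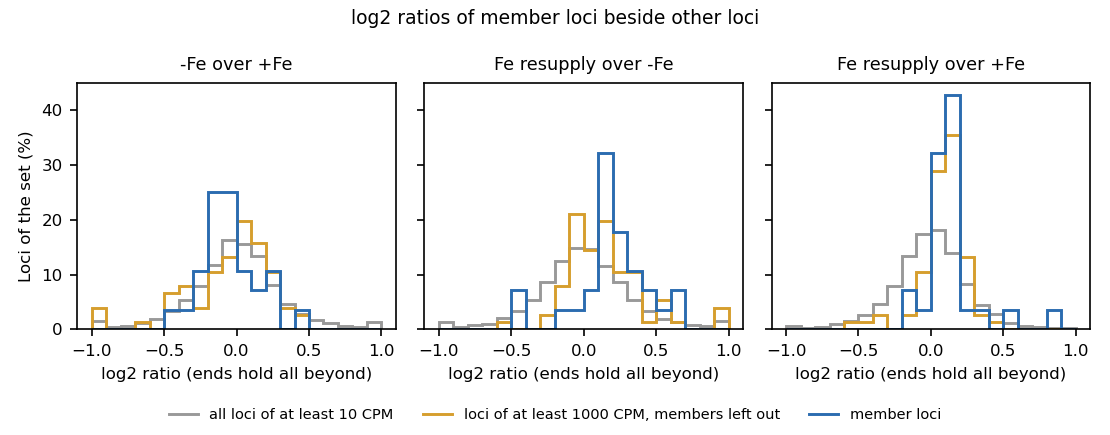
Share of loci in each log2 ratio bin of 0.1, for the 28 member loci (blue), the 76 other loci of at least 1000 CPM (yellow) and all 11230 loci of at least 10 CPM (grey), with values beyond 1 kept in the end bins. In both resupply panels the blue and yellow lines sit to the right of the grey one, with medians of 0.18 and 0.13 over -Fe and 0.13 and 0.11 over +Fe. The yellow set holds 13 photosystem I loci, and without them its medians were 0.05 and 0.09.

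LHCB1.5 shares its place with another locus. The annotated non-coding locus AT2G08665 runs on the opposite strand over all 1045 bases of LHCB1.5, and it was listed at 9787 CPM in +Fe, 11835 in -Fe and 13696 in resupply. The study assigned reads to a strand at another locus, but whether strand entered the counting behind these tables is not given in the sources used here, so reads of the gene and of its antisense partner cannot be told apart. LHCB1.5 held 35.8% of the counts of the pair in +Fe and in -Fe and 42.6% in resupply. As a sum, the pair had log2 ratios of 0.27 for -Fe over +Fe, 0.37 for resupply over -Fe and 0.65 for resupply over +Fe, so the call over -Fe is lost with the sum and the call over +Fe is not. No other gene overlapping a member was above 71.4 CPM in any condition; LHCB2.3 is overlapped over 595 bases by a locus of at most 28.4 CPM.

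Some loci also differed between conditions in the share of their transcripts, as the authors' quantification divided the reads. PSBS was listed as 2 main transcripts. AT1G44575.3, which encodes 265 residues, was at 731 CPM in +Fe, 1014 in -Fe and 975 in resupply, and AT1G44575.2, which encodes 205, was at 412, 330 and 196 CPM. The shorter form thus had 36.0%, 24.5% and 16.7% of the locus, and its log2 ratio of resupply over +Fe was -1.07.

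LHCB2.3 was also split between transcripts. AT3G27690.1 (266 residues) was at 1159 CPM in +Fe, 955 in -Fe and 1505 in resupply, while AT3G27690.2 (298 residues) was at 289, 355 and 176 CPM. The second form held 20.0%, 27.1% and 10.5% of the locus in that order. A minor form of LHCB2.1, AT2G05100.2, was at 4.59 CPM in +Fe, 25.6 in -Fe and 7.4 in resupply, at most 0.6% of its locus. A form of PSBQ2 that differs from the main one by its exons, AT4G05180.1, was at 72 CPM in +Fe, 0 in -Fe and 0.127 in resupply; without it, PSBQ2 was at -0.39 in -Fe over +Fe.

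**Figure D4:**
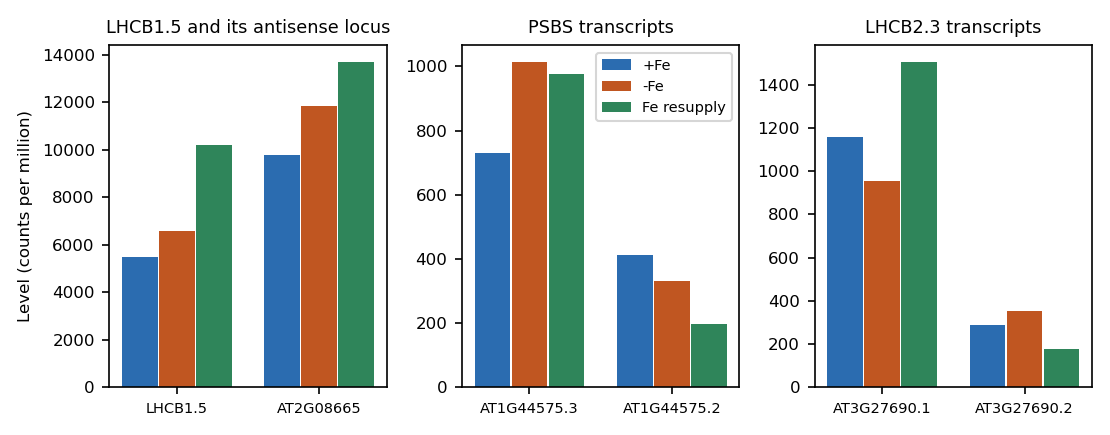
Levels in CPM from 0, with a bar for each condition, of LHCB1.5 and the antisense locus AT2G08665 that covers it (left), of the transcripts of PSBS (middle) and of LHCB2.3 (right); bars are condition levels with no replicate error. Both loci on the left are highest in resupply, at 10184 and 13696 CPM, while the second transcripts of PSBS and LHCB2.3 are lowest there, at 196 and 176 CPM.

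The upstream sequences of the loci that stood out are shown because LHCB promoters carry letters known to bind light and clock factors. The 150 bases before the annotated start are given 5′ to 3′ on the gene's own strand from RefSeq TAIR10.1, with LHCB1.3 and PSBQ1 as copies that were more even between conditions. Capitals mark the letters searched on both strands: the G-box CACGTG, the I-box GATAAG, the CCA1 site AAAAATCT and CCAATC.
LHCB1.3, chr1:10477735-10477884, plus strand: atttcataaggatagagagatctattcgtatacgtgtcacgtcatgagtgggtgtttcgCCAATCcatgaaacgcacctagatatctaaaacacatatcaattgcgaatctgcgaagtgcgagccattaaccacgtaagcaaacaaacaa
LHCB1.4, chr2:14524457-14524606, plus strand: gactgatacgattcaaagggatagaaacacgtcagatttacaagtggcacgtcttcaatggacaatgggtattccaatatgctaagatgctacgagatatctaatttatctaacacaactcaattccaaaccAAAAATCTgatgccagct
LHCB1.5, chr2:14523569-14523718, minus strand: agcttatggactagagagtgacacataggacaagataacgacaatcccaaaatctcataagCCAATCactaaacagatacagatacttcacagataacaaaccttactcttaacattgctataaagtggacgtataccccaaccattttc
PSBQ1, chr4:11334202-11334351, plus strand: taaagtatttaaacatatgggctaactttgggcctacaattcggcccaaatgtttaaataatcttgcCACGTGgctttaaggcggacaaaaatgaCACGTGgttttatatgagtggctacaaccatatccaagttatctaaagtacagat
PSBQ2, chr4:2673244-2673393, minus strand: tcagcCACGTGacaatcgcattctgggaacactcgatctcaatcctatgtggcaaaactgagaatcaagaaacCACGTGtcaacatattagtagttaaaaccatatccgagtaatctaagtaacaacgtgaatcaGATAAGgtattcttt

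PSBQ1 and PSBQ2 each hold 2 G-boxes in this window, and LHCB1.4 and LHCB1.5 share none of the letters searched. Over the 250 bases before the start, the G-box was in 10 of 31 members (32.3%) and in 6.5% of all 27443 protein-coding promoters. CCAATC was in 9 members (29.0%) and 10.2% of promoters, among them LHCB1.3, LHCB1.5, all 3 LHCB2 genes, LHCB4.1 and LHCB4.2. The I-box was in 19.4% of members and 12.3% of promoters, and the CCA1 site in 6.5% and 6.7%. A match describes letters and not a bound site.

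The factors that build and repair photosystem II had small ratios as well. All 21 assembly and repair factors passed 10 CPM and 0 were past 0.5 in any of the 3 comparisons. In -Fe over +Fe their median was 0.10, and the lumenal protease gene DEG5 was highest at 0.42 and the assembly factor gene LPA2 lowest at -0.09. None of the 11 genes for antenna import and light-stress relatives was past 0.5 in any comparison. In -Fe over +Fe, OHP2, a one-helix protein, was highest at 0.35 and the import factor CPSRP54 lowest at -0.23. Of the 4 thylakoid kinases and phosphatases, the phosphatase gene PBCP was highest at 0.02 and TAP38, which dephosphorylates the antenna, lowest at -0.14 in deficiency.

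Regulators of LHCB genes spanned a wider range, but GNL and PIF3 lay near the 10 CPM minimum, at mean levels of 10.3 and 10.8 CPM. GLK1, which activates nuclear genes of photosynthesis, was at 148 CPM in +Fe, 90 in -Fe and 131 in resupply. Its log2 ratio was -0.72 (counting SE 0.074) in deficiency and 0.54 on resupply. Its paralogue GLK2 was at 197, 214 and 184 CPM. The GATA factor gene GNL was highest of the list at 0.60 (counting SE 0.24), with levels of 8.98 CPM in +Fe and 14.1 in -Fe. Of the 7 regulators of at least 10 CPM, 1 was higher and 2 were lower by 0.5 in -Fe, beside the 5% and 5.75% of all loci. GLK1 was the lowest, and the other lower locus was PIF3 at -0.55 (counting SE 0.24).

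Photosystem I, which holds more iron than photosystem II, is the most similar set. Of its 18 nuclear genes, 2 were lower in -Fe by more than 1. PSAF, the plastocyanin docking subunit, was at 6628 CPM in +Fe, 1825 in -Fe and 4860 in resupply, a log2 ratio of -1.86, and the lumenal subunit gene PSAN was at 1700, 697 and 1893 CPM, a ratio of -1.29. Among the 28 nuclear members of at least 10 CPM, the lowest was PSBQ2 at -0.45. The medians were -0.05 for photosystem I and -0.09 for the 28 members. PSAD1, a stromal subunit gene, was the highest photosystem I gene, at 4333 CPM in +Fe and 4924 in -Fe and a ratio of 0.18.

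Of 15 plastid genes for photosystem II subunits, 5 passed 10 CPM and all 5 were below 0 in -Fe over +Fe. The D2 gene psbD was at 110 CPM in +Fe, 43.4 in -Fe and 39.8 in resupply, and the D1 gene psbA at 30.1, 14.3 and 29 CPM, with log2 ratios of -1.32 and -1.02 in deficiency. The highest of the 5 was psbM at -0.19. How plastid transcripts were carried through library preparation is not given in the sources used here, and the 10 other plastid genes were at most 12.1 CPM.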

How the data were processed

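RNA-seq reads from 9 shoot samples (3 per condition) were trimmed with Trimmomatic 0.36.5, mapped to TAIR10 with HISAT2 2.1.0, quantified with StringTie 1.3.3.2 and tested with edgeR 3.20.7.2 by the authors. The deposited tables, one per pair of conditions, give for each transcript an average log2 CPM over the libraries of the pair. Their fold changes, F statistics, p-values and adjusted p-values were not used. The 12 single-count levels per table set the depth, about 1130291 counts per library.

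Each table's floor (the level of transcripts with no reads, log2 0.808 to 0.830) was taken off, tables were scaled to a common median over loci of at least 10 CPM, transcripts were summed per locus, and the 3 condition levels were solved. Ratios carry a pseudocount of 1 CPM. The steps were tested on simulated data. Python 3.11.15, pandas 2.3.3 and Biopython 1.88 were used. No test was rerun, since the columns used hold no value per sample, and loci past a log2 ratio of 0.5 or 1 were counted.

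The members and lists were chosen with earlier results of these data known. All 31 members are named; from each list, the highest and lowest ratio of -Fe over +Fe and loci past 1, at most 4. GLK2 and PIF3 were named after their values were seen. Coordinates come from RefSeq TAIR10.1 by locus name. Coding sequences replaced the protein comparison that had been planned.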

Additional observations from a re-analysis of the deposited data

How the results depend on the processing

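The tables hold no value per sample, so the limits are those of condition averages: replicate spread is unknown, leaving out a sample was not run, and counting error is the only error. No paired analysis was possible because the tables hold no values per sample. In -Fe over +Fe the median of the members was between -0.12 and -0.05 in all settings. With no minimum level 1 locus was higher (ELIP2) and 1 lower (ELIP1) in this comparison, both at most 2.84 CPM, beside 6.73% and 8.69% of all loci. Single transcripts again gave 1 and 1 of 34, AT2G05100.2 and AT4G05180.1, beside 10.3% and 10.9% of transcripts. In resupply over -Fe, single transcripts gave 6 higher and 3 lower of 34, beside 11.9% and 10.5% of all 12263 transcripts of at least 10 CPM. A log2 ratio of at least 1 gave 0 higher, beside 1.16% of all loci. Unscaled tables gave 2 higher and 1 lower, beside 4.86% and 7.61% of all loci. Scaling on loci of at least 100 CPM gave 2 higher, beside 5.88%. Scaling on loci of at least 1000 CPM gave 2 higher, 2 lower and a median of 0.04, beside 3.56% and 11.2% of all loci. Leaving members and photosystem I out of those loci gave 2 higher and 2 lower, beside 4.8% and 8.39%. The higher call lost under each of these other scalings was that of PSBQ2. Summing LHCB1.5 with its antisense locus also gave 2 higher, without LHCB1.5, beside 6.14% of all loci. In resupply over +Fe, 1 locus was higher with a pseudocount of 5 CPM, beside 1.54% of all loci. With a mean level of at least 50 CPM 1 was higher, beside 1.34%. Scaling on loci of at least 1000 CPM gave 1 higher, with or without members and photosystem I (median 0.02 in both), beside 1.44% and 1.4%. Single transcripts gave 5 higher and 3 lower of 34, beside 8.8% and 9.25% of transcripts. At a log2 ratio of at least 1, 0 were higher, beside 0.142% of all loci. With no minimum level 1 locus was lower, beside 7.72%. Where 1 locus was higher in place of 2, the call lost was that of LHCB7. Of 1002 values of single loci under the alternatives, 930 moved by at most 0.1 and 72 by more. Many could not move by construction. The call threshold and the minimum level leave ratios as they are, as does the antisense sum at loci other than LHCB1.5. The 930 are therefore no measure of robustness. While 0 called values changed sign, some values near 0 did. LHCB1.1 in resupply over -Fe was at 0.05, and at -0.09 with scaling on loci of at least 1000 CPM. Both scalings on loci of at least 1000 CPM, and summing LHCB1.5 with its antisense locus, were added after the data were seen.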
